A study of Homo sapiens with 4 samples.

Results

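The genes described here are the well-expressed members of the ZNF zinc finger family in the pancreatic cancer line PANC-1, with and without CFL1. They are the genes of the authors' DESeq2 table whose symbol is ZNF followed by a number and at most 1 letter, chosen by their base mean, the mean normalized count over all libraries, which had to be at least 200. This gave 265 genes (under the 300 that would have been kept), out of 555 ZNF genes of that form and 59885 genes in the table. Of the ZNF genes 498 had a base mean above 0. The next gene inside the minimum was ZNF319 (base mean 202.6) and the next outside was ZNF747 (base mean 197.6). CFL1 knockout PANC-1 cells (genotype KO CFL1, 2 libraries) were compared with PANC-1 cells labelled control (2 libraries), both as total RNA. PANC-1 is a human line from a pancreatic ductal adenocarcinoma, and CFL1 encodes cofilin-1, which severs actin filaments. The labels give neither the way CFL1 was deleted nor whether a library came from a clone, a pool or a culture of its own, so every p-value rests on differences among these libraries that may be technical. The series title ties CFL1 to chromatin accessibility and oncogene transcription, and the comparison asks which ZNF transcripts differ when CFL1 is lost.

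ZNF proteins carry zinc fingers, most often of the C2H2 type, in which 2 cysteines and 2 histidines hold a zinc ion and residues of a short alpha helix read DNA. Many ZNF genes, above all those in the clusters of chromosome 19, also encode a KRAB domain, which recruits TRIM28 and through it SETDB1 and HP1 proteins that silence retroelements and other targets by histone H3 lysine 9 methylation. ZNF proteins without KRAB include promoter-binding activators, partners of chromatin enzymes, and proteins of the ribosome, of RNA and of the mitotic spindle. Of the 265 genes, 262 had a coding sequence in GENCODE. A KRAB motif was found in 142 of the 262, and 3 genes (ZNF252P, ZNF767P and ZNF271P) are pseudogenes. The number of C2H2 finger motifs ran from 0 to 31 (ZNF91), with a median of 12 in genes with a KRAB motif and 6 in genes without. Chromosome 19 held 107 of the genes, 88 of them with a KRAB motif.

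Reads per library were recovered from the printed digits of the base means for all 265 genes. The recovered reads of genes below a base mean of 10000 summed to 14674667 in knockout A and 12384866 in knockout B, against 14377591 in control A and 14437066 in control B. The letters were not tied to the numbers in the labels. The control that correlated less with the knockouts across genes was named control B, so control A is the closer control by naming. CFL1 had normalized counts of 2285 and 2487 in the knockouts and 6276 and 13761 in the controls (in the authors' deposited table, log2 fold change -2.07, standard error 0.454, DESeq2 adjusted p 0.00168). Fitted with limma to the reads of the 4 libraries, CFL1 had an adjusted p of 0.722 (0.69 to 0.769 over the limma and voom settings), and without control B its log2 difference was -1.40 (limma adjusted p 0.264). Control B differed widely from the 3 remaining libraries, in markers of cell identity too, and whether it comes from the same cells and batch was not tested. Every fold change over both controls, and every difference from control B, depends on that library. Values are therefore given for control A and control B apart. Of the epithelial markers, KRT8 and KRT18 had base means above 10000 and no library values. The authors' deposited table puts their log2 fold changes at -1.41 and -0.98 (unadjusted p 0.00133 and 0.0192, DESeq2 adjusted p 0.117 and 0.296). The mesenchymal marker VIM, also above 10000, had -1.81 there (unadjusted p 0.0326, DESeq2 adjusted p 0.351). EPCAM was at 7.08 and 16.2 in the knockouts, 6.36 in control A and 42.5 in control B, KRT19 was at 0 and 0 in the knockouts, 1.82 in control A and 2481 in control B, and KRT7 at 4000.4 and 3683 in the knockouts, 3551 in control A and 108 in control B. The stromal list (3 of 4 genes detected, LUM at 0) summed to 761 and 619 in the knockouts, 383 in control A and 1853 in control B. The leukocyte and endothelial list summed to 13.3 and 11.9 in the knockouts and 21.8 and 10.1 in the controls, and all 3 acinar markers were at 0. In bulk RNA, fewer cells of a type and less RNA per cell cannot be told apart, and the part of these markers in the ZNF results was not tested.

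As a family the ZNF genes took nearly the same share of the reads in every library. They held 1.36% of the recovered reads in knockout A and 1.36% in knockout B, against 1.35% in control A and 1.30% in control B. Their normalized counts summed to 176271 in knockout A and 181051 in knockout B, against 176633 in control A and 209459 in control B. Control B was thus lowest by share and highest by summed normalized count. Its size factor was 0.895, beside 1.1 in control A, and differences from control B depend on it. The median normalized count of a ZNF gene was 449.8 in knockout A and 471 in knockout B, against 442 in control A and 412 in control B. Single genes spread far more in 1 library than in the others. Between the 2 knockouts the median absolute log2 difference of a ZNF gene was 0.11, and 0.755% of the genes differed by more than 2-fold. Between knockout A and control A it was 0.17 with 0.755% of the genes, and between knockout A and control B it was 0.67 with 32.8% of the genes (0.77 with 38.8% over all 9881 genes with library values whose base mean was 200 or more). The 2 controls differed from each other by as much, with a median of 0.69 and 30.2% of the genes past 2-fold. Across the 265 genes, Pearson's r on the log2(normalized count + 1) scale was 0.99 between the knockouts, 0.97 between knockout A and control A, and 0.29 between knockout A and control B. These are correlations across genes measured in the same libraries, and genes are not independent replicates.

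In the authors' deposited table, 2 of the 265 genes had a DESeq2 adjusted p under 0.05, both lower in the knockouts (0.755%, against 0.421% lower among all 16629 genes with an adjusted p), and 0 were higher (against 0.138% of all). With unadjusted p under 0.05, the authors' deposited table had 4 ZNF genes higher (1.51%, against 3.78% of 10050 genes whose base mean was 200 or more) and 14 lower (5.28%, against 10.7%). Both genes called lower reached the base mean of 200 through control B, their means over the other 3 libraries being under 100, so nothing is read from their share. Among the 14 lower at the unadjusted p, ZNF385D, ZNF850, ZNF585B and ZNF546 also had means under 200 over those 3 libraries. Nothing is read from that share either. The share that was higher at the unadjusted p lay under that of all genes. In the authors' deposited table the median log2 fold change over the 265 genes was 0.08, beside -0.06 over all genes whose base mean was 200 or more. Fold changes were above 0 for 149 genes and below 0 for 116.

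The libraries gave more detail than the combined fold changes. Both knockouts lay above both controls for 79 ZNF genes (29.8%, against 24.1% of all 9881 genes) and below both for 45 (17.0%, against 23.7%). Against control A, the mean of the knockouts on the log2(normalized count + 1) scale differed by more than 2-fold for 1 ZNF gene, ZNF365 (0.377%, against 1.09% of all genes). Against control B, it was more than 2-fold higher for 57 ZNF genes (21.5%, against 18.6%) and more than 2-fold lower for 32 (12.1%, against 19.5%). The median difference was 0.03 from control A and 0.18 from control B for the ZNF genes, and 0.01 and -0.09 for all genes. The 2 differences share the knockout libraries and so are not separate evidence.

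**Figure D1:**
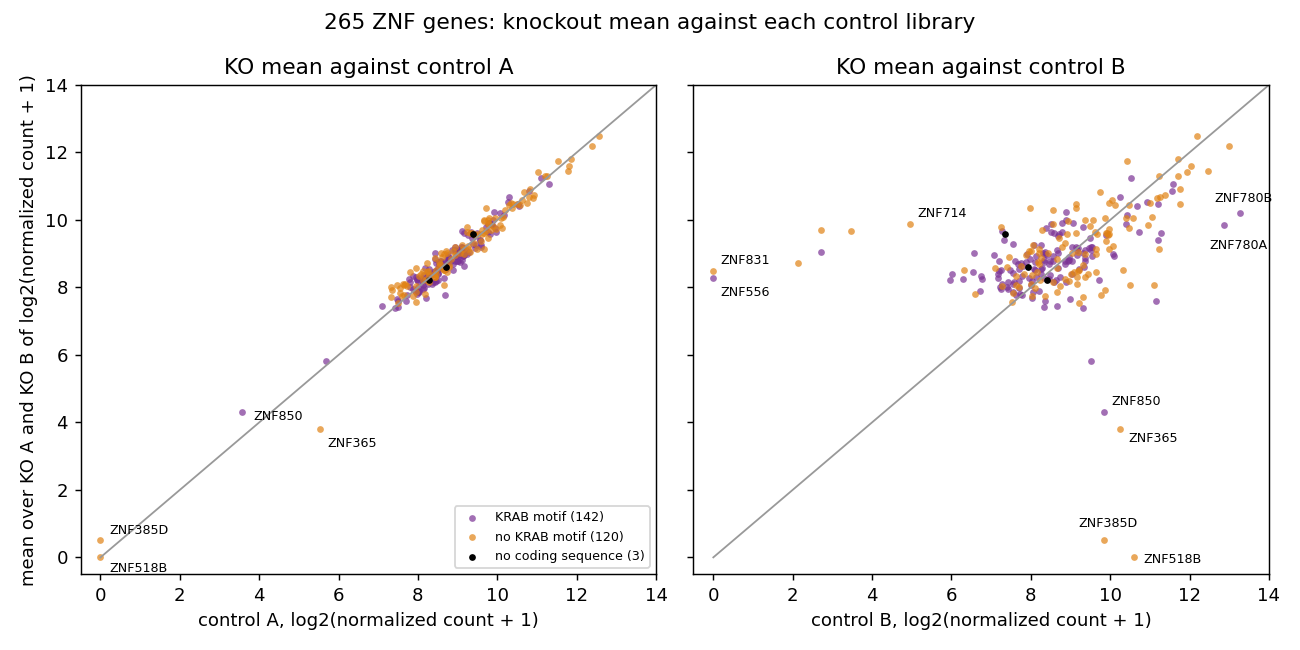
Mean of the 2 knockout libraries (vertical axis) against control A (left) and control B (right) for the 265 ZNF genes, all as log2(normalized count + 1); each point is a gene, coloured by its KRAB motif, and the grey line marks equal levels. Points follow the line against control A, where 1 gene (ZNF365) differs by more than 2-fold, and scatter against control B, where 57 genes lie more than 2-fold above it and 32 below.

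**Figure D2:**
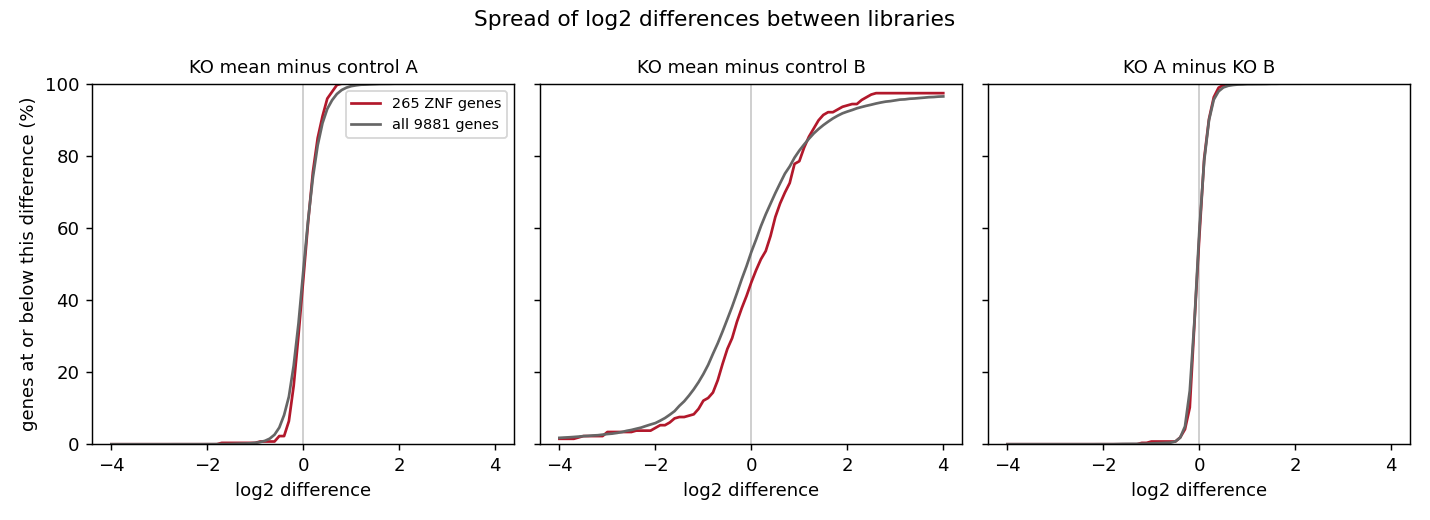
Share of genes at or below each log2 difference, for the knockout mean minus control A (left), the knockout mean minus control B (middle) and knockout A minus knockout B (right), with the 265 ZNF genes in red and all 9881 genes in grey. The ZNF curve for control B runs to the right of the grey one around 0 (medians 0.18 and -0.09), and the other panels rise steeply near 0.

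The 2 genes that fell with an adjusted p under 0.05 were ZNF518B and ZNF365. ZNF518B (ENSG00000178163.7_2_ZNF518B), a reported partner of the histone methyltransferase G9a, had 0 and 0 reads in the knockouts, and 0 and 1389 in control A and control B. All its reads lay in control B, and control A had none, like the knockouts. Its normalized count in control B, 1552, was at least 584-fold higher than the level that 3 reads would give in knockout A, at least 480-fold higher than that in knockout B and at least 569-fold higher than that in control A. In the authors' deposited table the fitted log2 fold change is -25.37 (standard error 4.78, DESeq2 adjusted p 0.000237), which for a gene with no read in 3 libraries is set by the fit and is no bound. ZNF365 (ENSG00000138311.15_3_ZNF365), a protein tied to the stability of stalled replication forks, had normalized counts of 7.97 in knockout A and 20.5 in knockout B, against 45.4 in control A and 1206 in control B. Both knockouts lay below both controls, with control B far above the other 3 libraries. The authors' deposited table puts its log2 fold change at -5.46 (standard error 1.33, DESeq2 adjusted p 0.0111). On the log2(normalized count + 1) scale the knockout mean was -1.74 from control A and -6.44 from control B. ZNF365 shares 27.6% of its 75-base windows with other gene models, so its reads may be divided.

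The RefSeq promoters of these 2 genes are shown (GRCh38.p14, 250 bases before to 50 after the start, 300 in all). Control B held over 1000 reads of each gene, and the other 3 libraries held none or few. Whether control B comes from the same cells was not tested. The CG dinucleotides, the sites of DNA methylation, are in capitals. ZNF518B lies at chr4:10457377-10457676 on the minus strand with 35 CG, and ZNF365 at chr10:62374119-62374418 on the plus strand with 39 CG.
ZNF518B: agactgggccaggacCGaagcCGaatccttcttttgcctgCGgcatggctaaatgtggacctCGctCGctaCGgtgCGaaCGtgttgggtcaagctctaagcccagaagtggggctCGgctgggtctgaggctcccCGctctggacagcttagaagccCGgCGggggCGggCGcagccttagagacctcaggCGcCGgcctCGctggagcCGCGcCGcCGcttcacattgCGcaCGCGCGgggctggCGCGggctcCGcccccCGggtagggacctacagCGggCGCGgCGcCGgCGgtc
ZNF365: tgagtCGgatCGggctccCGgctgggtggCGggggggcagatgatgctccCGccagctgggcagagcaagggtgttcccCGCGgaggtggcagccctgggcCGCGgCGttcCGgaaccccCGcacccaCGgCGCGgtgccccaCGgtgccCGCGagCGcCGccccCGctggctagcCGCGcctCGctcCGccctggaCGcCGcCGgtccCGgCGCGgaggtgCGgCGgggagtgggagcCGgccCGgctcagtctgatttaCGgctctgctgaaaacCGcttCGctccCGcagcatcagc
Both exceed the median of 23 CG over the 230 ZNF promoters that could be matched. No methylation was measured here.

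Because the members were chosen by a mean over all 4 libraries, some reached the minimum through control B. The mean over the other 3 libraries was under 200 for 13 of the 265 genes, and under 100 for 5 of these (ZNF365, ZNF385D, ZNF518B, ZNF585B and ZNF850). In the other direction 10 ZNF genes outside the set would reach 200 without control B.

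Like ZNF518B and ZNF365, the genes ZNF385D, ZNF850 and ZNF585B had means under 100 over the libraries other than control B. Such genes reach the minimum only by being high in control B, so that height is no separate result. ZNF385D had 0 and 1 reads in the knockouts and 0 and 821 in control A and control B. ZNF850, a KRAB gene with 29 finger motifs, had 26 and 14 reads in the knockouts and 12 and 828 in control A and control B. ZNF585B had normalized counts of 61.1 in knockout A and 49.6 in knockout B, against 50 in control A and 725 in control B. Control A lay at or near the knockouts for ZNF385D and ZNF585B. For ZNF850 the knockout mean lay 0.72 above control A on the log2 scale, at few reads. In the authors' deposited table their log2 fold changes were -9.75, -4.62 and -2.81, with unadjusted p of 0.0407, 0.0258 and 0.0149 and DESeq2 adjusted p of 0.376, 0.328 and 0.269. ZNF585B shares 21.1% of its windows with other genes, of which ZNF585A has the most, so its reads may be divided.

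Neighbouring genes on chromosome 19, ZNF546, ZNF780B and ZNF780A, were high together in control B. All 3 carry a KRAB motif. ZNF546 had normalized counts of 184 in knockout A and 203 in knockout B, against 207 in control A and 2286 in control B. Its mean over the libraries other than control B was under 200. ZNF546 thus reached the minimum only through control B, and its height there is no separate result. ZNF780B had 1244 in knockout A and 1116 in knockout B, against 1069 in control A and 9835 in control B. ZNF780A had 885 in knockout A and 955 in knockout B, against 924 in control A and 7414 in control B. In each of the 3 genes the knockouts and control A lay close together, and control B lay apart. The knockout means differed from control B by -3.56, -3.06 and -3.01 on the log2 scale, and from control A by -0.10, 0.14 and -0.01. The authors' deposited table gives log2 fold changes of -2.69, -2.21 and -2.18, with DESeq2 adjusted p of 0.221, 0.47 and 0.262.

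The promoters of these neighbours are printed because the 3 genes moved together between libraries, again with CG dinucleotides in capitals. ZNF546 starts on the plus strand (chr19:39996810-39997109), and ZNF780B (chr19:40056182-40056481) and ZNF780A (chr19:40090894-40091193) on the minus strand.
ZNF546: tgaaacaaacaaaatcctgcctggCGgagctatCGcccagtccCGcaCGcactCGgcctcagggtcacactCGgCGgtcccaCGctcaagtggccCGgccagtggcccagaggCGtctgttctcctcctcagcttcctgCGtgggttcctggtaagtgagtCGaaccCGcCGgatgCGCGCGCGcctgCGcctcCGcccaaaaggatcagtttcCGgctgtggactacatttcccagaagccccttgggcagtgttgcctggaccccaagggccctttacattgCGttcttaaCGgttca
ZNF780B: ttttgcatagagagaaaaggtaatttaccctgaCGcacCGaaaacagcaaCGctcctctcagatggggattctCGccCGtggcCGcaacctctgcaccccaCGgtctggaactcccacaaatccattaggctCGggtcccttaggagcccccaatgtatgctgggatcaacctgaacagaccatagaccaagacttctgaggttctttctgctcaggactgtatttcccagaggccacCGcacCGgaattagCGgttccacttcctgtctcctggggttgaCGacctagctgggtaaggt
ZNF780A: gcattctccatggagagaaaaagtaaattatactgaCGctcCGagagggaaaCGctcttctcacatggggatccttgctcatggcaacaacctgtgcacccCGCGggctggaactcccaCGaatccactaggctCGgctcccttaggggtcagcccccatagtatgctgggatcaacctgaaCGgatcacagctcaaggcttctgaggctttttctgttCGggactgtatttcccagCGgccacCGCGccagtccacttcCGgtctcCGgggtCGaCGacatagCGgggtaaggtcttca
The windows of ZNF780B and ZNF780A aligned over 304 columns with 80.3% identical bases. The window of ZNF546 aligned to them only over 32 and 43 columns. Of the motifs searched, ZNF546 held a GC box, ZNF780B a CCAAT box, and ZNF780A the core of ETS factors. For this pair, the last canonical finger of each coding sequence in GENCODE 29 is printed over 84 bases. It starts at residue 586 in ZNF780A and at residue 725 in ZNF780B, and the fingers were not shown to correspond. The codons of the zinc-binding cysteines and histidines are in capitals. The search set these residues and their spacing, so their match is no trait of the pair.
ZNF780A: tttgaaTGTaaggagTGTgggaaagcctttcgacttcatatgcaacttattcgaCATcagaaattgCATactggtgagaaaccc
ZNF780B: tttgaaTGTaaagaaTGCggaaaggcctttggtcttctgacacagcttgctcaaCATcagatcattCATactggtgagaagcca
These stretches differ at 21 of 84 bases. The larger share of 75-base windows that either gene has with other genes is 3.74%, so few reads of the pair could be divided.

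Other genes were high in the knockouts and control A and low or absent in control B. ZNF831 had 406 and 326 reads in the knockouts, and 335 and 0 in control A and control B. ZNF556, a KRAB gene on chromosome 19, had 357 and 282 reads in the knockouts, and 287 and 0 in control A and control B. For these 2 genes the lowest of the other 3 libraries was at least 90.8-fold (ZNF831) and at least 77.8-fold (ZNF556) higher than the level that 3 reads would give in control B. ZNF618, a reported partner of UHRF2 at hydroxymethylated DNA, had normalized counts of 852 in knockout A and 812 in knockout B, against 778 in control A and 5.59 in control B. ZNF503, a transcriptional repressor of embryonic development, had 412 in knockout A and 426 in knockout B, against 296 in control A and 3.35 in control B. ZNF300 had 489.6 in knockout A and 562 in knockout B, against 513 in control A and 5.59 in control B. Of the 5, ZNF503 was at 3 reads in control B, ZNF618 and ZNF300 at 5 each, and the knockout means lay 0.03 (ZNF300) to 0.50 (ZNF503) above control A on the log2 scale. In the authors' deposited table their log2 fold changes ran from 1.02 (ZNF300) to 1.48 (ZNF503), with DESeq2 adjusted p between 0.752 (ZNF503) and 0.868 (ZNF831).

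The ZNF556 promoter, on chromosome 19 at chr19:2867085-2867384 (plus strand), is shown because control B held no read of the gene. It has 8 CG in the same length, beside 12 (ZNF780B), 17 (ZNF780A) and 23 (ZNF546).
ZNF556: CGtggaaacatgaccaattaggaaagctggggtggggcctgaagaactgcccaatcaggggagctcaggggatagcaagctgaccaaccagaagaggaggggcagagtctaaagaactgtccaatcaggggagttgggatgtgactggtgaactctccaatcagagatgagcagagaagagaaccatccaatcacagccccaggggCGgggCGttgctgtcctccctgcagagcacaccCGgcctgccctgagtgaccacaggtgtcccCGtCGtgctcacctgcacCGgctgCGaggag
It held a GC box and a CCAAT box among the motifs searched.

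**Figure D3:**
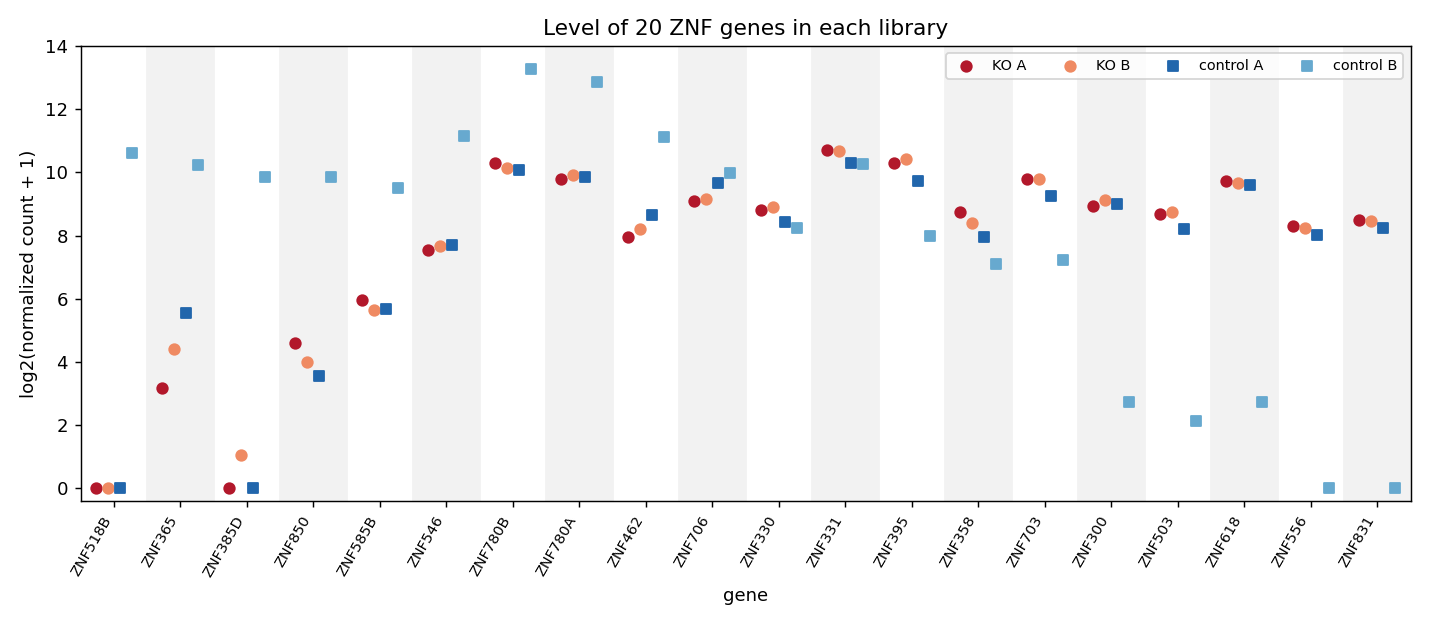
Levels of 20 ZNF genes in knockout A, knockout B, control A and control B, in that order from left to right within each gene, as log2(normalized count + 1). The genes on the left are high in control B (ZNF518B at 1552 normalized counts), those on the right are low or absent there (ZNF831 and ZNF556 at 0), and ZNF706, ZNF330, ZNF331, ZNF395, ZNF358 and ZNF703 have the knockouts together on 1 side of the controls.

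Other genes differed in the same direction from both controls. ZNF706, which in mouse embryonic stem cells promotes exit from self-renewal, lay below both controls in both knockouts, with normalized counts of 542 in knockout A and 574 in knockout B, against 812 in control A and 1010.4 in control B. The authors' deposited table puts its log2 fold change at -0.71 (standard error 0.25, unadjusted p 0.00466, DESeq2 adjusted p 0.192). ZNF451, a SUMO ligase, was also lower in both, with normalized counts of 2651 in knockout A and 2931 in knockout B, against 3545 in control A and 5645 in control B. ZNF532, a partner of ZMYND8 and ZNF592 in a chromatin complex, had 889.9 in knockout A and 859 in knockout B, against 1119 in control A and 1429.5 in control B. The knockouts did not overlap with the controls in any of these 3 genes, and control B was the higher control in each. The log2 fold changes of ZNF451 and ZNF532 in the authors' deposited table were -0.72 and -0.54, with unadjusted p of 0.0287 and 0.0292 and DESeq2 adjusted p of 0.34 and 0.342. ZNF462, ZNF407, ZNF264 and ZNF587B completed the 14 with an unadjusted p under 0.05, each with both knockouts below both controls. ZNF462, a regulator of embryonic development, had 249.7 in knockout A and 292 in knockout B, against 404 in control A and 2203 in control B. For ZNF407, ZNF264 and ZNF587B the knockout means were -0.34, -0.15 and -0.32 from control A and -2.09, -1.79 and -1.09 from control B on the log2 scale.

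The 4 genes that were higher at an unadjusted p under 0.05 were ZNF395, ZNF358, ZNF330 and ZNF331. None of the 4 passed the adjusted p. ZNF331, an imprinted KRAB gene, had normalized counts of 1677 in knockout A and 1633 in knockout B, against 1245 in control A and 1218 in control B. Its controls lay closer to each other than to the knockouts, and the authors' deposited table puts its log2 fold change at 0.43 (standard error 0.171, unadjusted p 0.013, DESeq2 adjusted p 0.258). ZNF330, a nucleolar protein, had 449.8 in knockout A and 477 in knockout B, against 346 in control A and 303 in control B. ZNF395, a factor that responds to hypoxia, had 1249 in knockout A and 1386 in knockout B, against 841 in control A and 251 in control B. ZNF358 had 427 in knockout A and 336 in knockout B, against 246 in control A and 135 in control B. The knockouts lay above both controls in all 4, and control B was the lower control in each. Log2 fold changes in the authors' deposited table were 0.51, 1.27 and 0.999 for ZNF330, ZNF395 and ZNF358, with DESeq2 adjusted p of 0.378, 0.38 and 0.346. ZNF395 shares 41.4% of its windows with other genes, of which FBXO16 has the most, so its reads may be divided.

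Against control A alone, differences were small. Their range was -1.74 (ZNF365) to 0.72 (ZNF850) on the log2 scale, with quartiles of -0.13 and 0.20. ZNF365 was followed downwards by ZNF480, ZNF462, ZNF706 and ZNF789, at -0.90, -0.58, -0.54 and -0.53. ZNF480 had normalized counts of 221 in knockout A and 218 in knockout B, against 411 in control A and 219 in control B, so its knockouts equalled control B and lay under control A. ZNF789 had 395 in knockout A and 398 in knockout B, against 574 in control A and 221 in control B, with the controls on either side of the knockouts. Upwards, ZNF850 was followed by ZNF213, ZNF579, ZNF395 and ZNF358, at 0.69, 0.66, 0.65 and 0.62. ZNF850 rests on 12 reads in control A.

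By role, the list of proteins of RNA, ribosome, ubiquitin and mitosis held 4 of the 5 genes with the highest base means, which are not corrected for length. All 13 genes of the list reached the base mean of 200. Of these, 0 had a DESeq2 adjusted p under 0.05 (against 0.138% higher and 0.421% lower among all genes with one). Both knockouts lay above both controls for 3 of the 13 (23.1%, against 24.1% of all genes) and below both for 5 (38.5%, against 23.7%), and in the authors' deposited table the median log2 fold change was -0.20. ZNF207, which loads the checkpoint protein BUB3 on kinetochores, had the highest base mean of the family, with normalized counts of 4847 in knockout A and 4592 in knockout B, against 5325 in control A and 8148 in control B. ZNF106, an RNA-binding protein, had 5522 in knockout A and 5968 in knockout B, against 6090.1 in control A and 4639.5 in control B. ZNF638, which binds RNA and silences unintegrated retroviral DNA, had 3105 in knockout A and 3133 in knockout B, against 3596 in control A and 4189 in control B. Both knockouts lay below both controls for ZNF207 and ZNF638, with DESeq2 adjusted p of 0.474 and 0.474, and ZNF106 overlapped. ZNF622, needed for a late step of the large ribosomal subunit, had 1158 in knockout A and 914 in knockout B, against 815 in control A and 657 in control B, with both knockouts above both controls (DESeq2 adjusted p 0.455). ZNF593, the human relative of a yeast ribosome export factor, had 277 in knockout A and 207 in knockout B, against 162 in control A and 929 in control B, with the knockouts between the controls. ZNF598, the ubiquitin ligase of collided ribosomes, had 1058 in knockout A and 1065 in knockout B, against 881 in control A and 1516 in control B, also between the controls. Per kilobase of the longest transcript, mean normalized counts ran from 21.5 (ZNF385D) to 758 (ZNF146, a protein made almost wholly of fingers), and ZNF770 and ZNF460 followed with 653 and 636.

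Among 10 promoter-binding ZNF factors, 0 had an adjusted p or an unadjusted p under 0.05 in the authors' deposited table. Of all genes whose base mean was 200 or more, 3.78% were higher and 10.7% lower at the unadjusted p, so little is read from this count. The median log2 fold change was 0.02, and the median difference from control A was -0.04. ZNF143, an activator of many promoters, had normalized counts of 349 in knockout A and 422 in knockout B, against 386 in control A and 402 in control B, with overlapping groups. ZNF410, whose known target is CHD4, had 1335 in knockout A and 1442 in knockout B, against 1510.5 in control A and 1111 in control B, and CHD4 itself had 6206 in knockout A and 6067 in knockout B, against 5501 in control A and 4463 in control B. ZNF131 had 1449 in knockout A and 1392 in knockout B, against 1354 in control A and 561 in control B, and ZNF652 had 1251 in knockout A and 1338 in knockout B, against 1321 in control A and 559 in control B. In both genes control B held less than any other library, and control A lay near the knockouts. ZNF281, a factor of pluripotency and of epithelial to mesenchymal transition, had 953 in knockout A and 1241 in knockout B, against 1123 in control A and 2136 in control B, with control B above the rest. ZNF410 shares 83.4% of its windows with other gene models, so its level is uncertain.

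Of 10 partners of chromatin enzymes on the list, 8 reached the minimum. ZNF518B was the 1 gene of the 8 with a DESeq2 adjusted p under 0.05 (against 0.421% lower among all 16629 genes with an adjusted p). Nothing is read from this count either, because control B also brought in ZNF518B. ZNF518A, its paralog, had normalized counts of 545 in knockout A and 574 in knockout B, against 608 in control A and 805 in control B. ZNF644, a partner of G9a and GLP, had 1390.2 in knockout A and 1471 in knockout B, against 1432 in control A and 3478 in control B. ZNF516 had 285 in knockout A and 256 in knockout B, against 201 in control A and 1452 in control B, and ZNF512 had 835 in knockout A and 814 in knockout B, against 912 in control A and 308 in control B. Control B was above the other libraries for ZNF518A, ZNF644 and ZNF516 and below them for ZNF512, and DESeq2 adjusted p were 0.61, 0.505, 0.439 and 0.747. ZNF592 and ZNF609 had knockout means at most 0.50 from either control on the log2 scale.

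Of the 6 cancer-linked genes 5 reached the minimum. ZNF365 was the 1 gene of the 5 with a DESeq2 adjusted p under 0.05 (against 0.421% lower among all 16629 genes with an adjusted p). ZNF365 reached the minimum through control B, so nothing is read from this count. ZNF703, amplified in some luminal breast cancers, had normalized counts of 877 in knockout A and 879 in knockout B, against 604 in control A and 149.8 in control B. Its knockouts were nearly equal and lay above both controls, and control B was the lowest library. For ZNF703 the authors' deposited table puts the log2 fold change at 1.22 (standard error 0.702, unadjusted p 0.0827, DESeq2 adjusted p 0.457). ZNF367 had 964 in knockout A and 1028 in knockout B, against 816 in control A and 486 in control B, and the knockouts again lay above both controls (DESeq2 adjusted p 0.475). ZNF217, amplified in breast and other cancers, had 2408 in knockout A and 2649 in knockout B, against 2444 in control A and 3327 in control B, with overlapping groups. ZNF521, on the list but under the minimum, had 45.2 and 46.4 in the knockouts and 44.5 and 1.12 in the controls.

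Of 10 retroelement and KRAB repressors 7 reached the minimum, with 0 at an adjusted or an unadjusted p under 0.05. Of all genes at that minimum, 3.78% were higher and 10.7% lower at the unadjusted p, so little is read from this count. ZNF91, which represses SVA elements, had normalized counts of 627 in knockout A and 602 in knockout B, against 709 in control A and 270.5 in control B. ZNF274, which brings SETDB1 to the ends of ZNF genes themselves, had 389 in knockout A and 336 in knockout B, against 363 in control A and 177 in control B. ZNF10, the protein in which KRAB repression was first studied, had 221 in knockout A and 247 in knockout B, against 261 in control A and 187 in control B, and ZNF268 had 355 in knockout A and 318 in knockout B, against 325 in control A and 525 in control B. In ZNF91 and ZNF274 the knockouts and control A were close and control B was lower, and in ZNF268 control B was higher. The other 3 genes of the list, ZNF93, ZNF649 and ZNF382, had base means under 10.

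The corepressor machinery that KRAB domains use was expressed in every library. Of 19 genes on the list, 18 had a base mean above 0 (ZFP57 was at 0), 17 had library values (CBX5 had a base mean above 10000), and 0 of the 18 had an adjusted or an unadjusted p under 0.05 in the authors' deposited table. Both knockouts lay above both controls for 6 of the 17 (35.3%, against 24.1% of all genes) and below both for 6 (35.3%, against 23.7%), and the median difference of the knockouts was 0.04 from control A and -0.11 from control B. TRIM28, the protein that KRAB binds, had normalized counts of 6852 in knockout A and 6428 in knockout B, against 6459 in control A and 13544 in control B (in the authors' deposited table, log2 fold change -0.59 and DESeq2 adjusted p 0.565). SETDB1, the methyltransferase that TRIM28 recruits, had 652 in knockout A and 725 in knockout B, against 635 in control A and 965 in control B. CHD3, a remodeller of the NuRD complex that TRIM28 binds, had 6846 in knockout A and 6432 in knockout B, against 5568 in control A and 1263 in control B. Control B held more TRIM28 and SETDB1 and less CHD3 than the other 3 libraries, which lay close together. Of the HUSH complex, which spreads and maintains H3 lysine 9 methylation, FAM208A had 3485 in knockout A and 3931 in knockout B, against 3162 in control A and 2698 in control B and MPHOSPH8 had 568 in knockout A and 493 in knockout B, against 625 in control A and 678 in control B. DNMT1 and UHRF1, which copy DNA methylation at replication, differed between the knockout mean and either control by at most 0.24 on the log2 scale. DAXX, a histone H3.3 chaperone, had 676 in knockout A and 720.4 in knockout B, against 721 in control A and 1406 in control B, and its partner ATRX had 5051 in knockout A and 5080.3 in knockout B, against 4477 in control A and 2813 in control B.

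**Figure D4:**
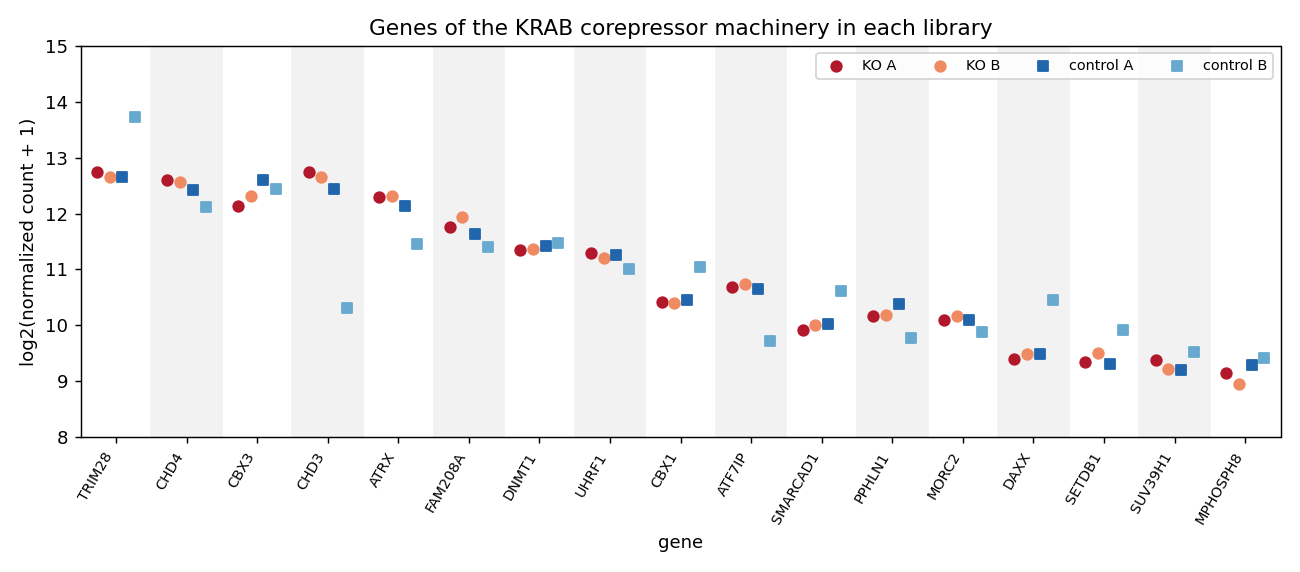
Levels of the 17 genes of the KRAB corepressor machinery with library values, in knockout A, knockout B, control A and control B from left to right within each gene, as log2(normalized count + 1), ordered by base mean. Control B departs from the other 3 libraries most for CHD3 (1263 normalized counts) and TRIM28 (13544).

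Genes with a KRAB motif stood mostly above control B and level with control A. The knockout mean exceeded control B by a median of 0.31 on the log2 scale over the 142 genes with a KRAB motif, beside -0.01 over the 120 without, and -0.09 over all 9881 genes. From control A the medians were 0.03, 0.07 and 0.01. The median log2 fold changes in the authors' deposited table were 0.10 with and 0.03 without a KRAB motif. Both genes with an adjusted p under 0.05 lacked a KRAB motif, and both had reached the minimum through control B. The knockouts were more than 2-fold above control B for 32 of the 142 (22.5%, against 18.6% of all genes) and more than 2-fold below it for 14 (9.86%, against 19.5%), and 0 of the 142 were more than 2-fold from control A. Genes on chromosome 19 had a median of 0.30 from control B and 0.03 from control A, and genes on other chromosomes 0.04 and 0.04. Split by the GC content of the transcript instead, the median from control B was 0.32 for ZNF genes at or below their median GC content. It was -0.0005 for those above. Genes with a KRAB motif had a median GC content of 42.4%, beside 47.4% without, and which trait the difference goes with was not tested. These medians describe 1 control library at a time and carry no test.

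On chromosome 19, 95 of the 107 genes fell into 9 groups of at least 3 neighbours with starts at most 1 Mb apart. Some groups lay wholly on 1 side of control B. Beside their counts, the difference from control B was 0 or less for 44.9% of the ZNF genes and 53.3% of all genes. The groups are small and rest on 1 library, and whether position plays a part was not tested. In the group from ZNF283 to ZNF180 all 9 genes had knockout means above control B, by 0.40 to 2.37 on the log2 scale, while from control A they ran from -0.22 to 0.33. In the group from ZNF430 to ZNF100 all 5 were above it, by 0.51 to 4.92, and within 0.19 of control A. The widest of these was ZNF714, with normalized counts of 976 in knockout A and 914 in knockout B, against 879 in control A and 30.2 in control B, and ZNF100 of the same group had 361 in knockout A and 333 in knockout B, against 332 in control A and 92.8 in control B. In the group from ZNF627 to ZNF791 all 5 were above it, by 0.18 to 1.46, and between -0.28 and 0.27 from control A. All 3 genes from ZNF546 to ZNF780A lay below it, of which ZNF546 reached the minimum only through control B. Of the 6 from ZNF579 to ZNF444, none with a KRAB motif, 5 lay below it and 1 above, from -1.78 to 0.44 with a median of -0.87, and from control A they ran from -0.11 to 0.66 with a median of 0.43. Of the 8 from ZNF558 to ZNF562, 5 lay above it and 3 below, and their median was 0.19 from control B and 0.06 from control A. The group from ZNF146 to ZNF607 was mixed, from -5.56 (ZNF850) to 1.08, and so was the group of 26 from ZNF264 to ZNF446, with 11 above and 15 below (medians -0.07 from control B and -0.03 from control A). The group of 24 from ZNF175 to ZNF331 had 19 above and 5 below (medians 0.44 and 0.03). On chromosome 7, the 4 neighbours from ZNF736 to ZNF92 were all above control B, by 0.22 to 1.95, and between -0.36 and 0.07 from control A.

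**Figure D5:**
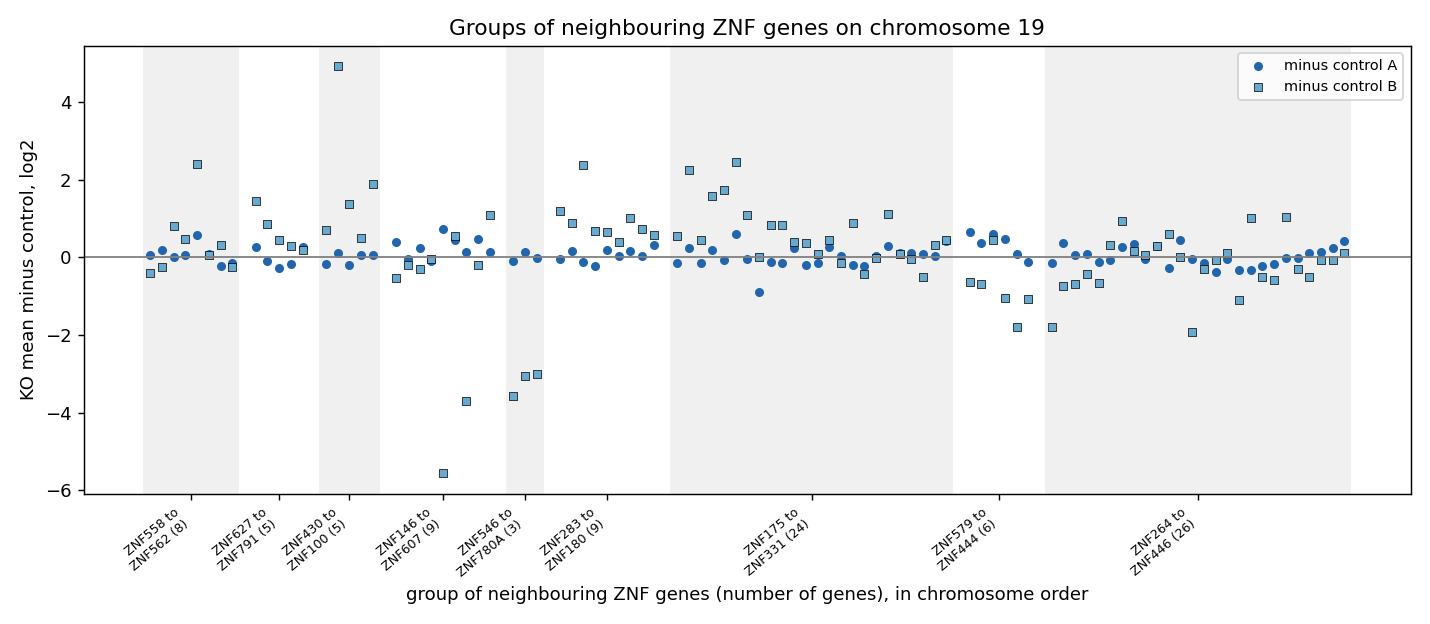
Difference of the knockout mean from control A (round) and control B (square), in log2, for the 95 genes of the 9 neighbour groups of chromosome 19, in chromosome order with the number of genes in brackets. Round points run from -0.90 (ZNF480) to 0.72 (ZNF850), with the highest group median, 0.43, from ZNF579 to ZNF444, and the squares of the groups from ZNF430 to ZNF100 and from ZNF283 to ZNF180 all lie above 0, and those from ZNF546 to ZNF780A below.

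The small differences from control A were related to the GC content of the transcripts. Spearman's rho between GC content and the difference of the knockout mean from control A was 0.27 over the 265 ZNF genes (Pearson's r 0.30) and 0.28 over 9849 of all 9881 genes. It was 0.19 for the difference between the knockouts themselves (0.31 over all genes) and -0.12 for the difference from control B. These points share libraries and base composition, and the values are descriptions. The 79 genes with both knockouts above both controls included 42 of the 132 genes with a GC content above the median and 37 of the other 133, and the 45 with both below both controls included 20 and 25. The part of GC content in these differences was not tested.

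The promoters of the ZNF genes were searched for short motifs. A RefSeq promoter of 300 bases was matched for 230 of the 265 genes. The median number of CG dinucleotides was 23, beside 14 over 27305 promoters and 27 over the promoters of 7768 genes whose base mean was 200 or more. The core of ETS factors, CCGGAAG on either strand, was in 45.2% of the ZNF promoters, in 21.6% of those of the expressed genes and in 10.7% of all. A CCAAT box (CCAAT) was in 43.0%, 37.1% and 35.7%, and among ZNF genes in 69 of 130 with a KRAB motif and 30 of 100 without. The TATA box TATAAA was in 2.61%, 5.01% and 12%, and the GC box GGGCGG in 65.7%, 73.0% and 44.6%. ACTACAA, the stretch searched as a ZNF143 core, was in 7.83%, 4.11% and 2.95%. A motif match is a description of the letters and not of binding.

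Some ZNF genes share so much sequence with other genes that short reads may not tell them apart. ZNF320 and ZNF468 share over 99% of their 75-base windows with transcripts of other genes, so the division of their reads is uncertain. ZNF320 had normalized counts of 807 in knockout A and 742 in knockout B, against 892 in control A and 417 in control B. ZNF468 had 402 in knockout A and 489.6 in knockout B, against 434 in control A and 488 in control B. In all, 12 of the 265 genes share over 30% of their windows with other genes, and 150 share none.

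The steadiest genes over all 4 libraries were ZNF710, ZNF121, ZNF529, ZNF160 and ZNF525. ZNF121 had normalized counts of 2457 in knockout A and 2554 in knockout B, against 2350.2 in control A and 2403 in control B. ZNF529 had 559 in knockout A and 541 in knockout B, against 591 in control A and 569 in control B, and ZNF160 had 605 in knockout A and 548 in knockout B, against 565 in control A and 580.1 in control B. These genes were chosen for the smallest spread over the 4 libraries, so control B lay near the others by that choice. ZNF160 and ZNF525 sit in the chromosome 19 group of 24 in which 19 knockout means lay above control B. Log2 fold changes of the 5 in the authors' deposited table ran from -0.08 (ZNF529) to 0.10 (ZNF525).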

How the data were processed

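RNA sequencing was done on an Illumina NovaSeq 6000 from RNA whose integrity number was 7.0 or more, per the labels' protocols. FastQC, cutadapt, STAR and RSEM and the build hg19 are named in the submitters' processing notes. The authors deposited 1 DESeq2 result table, with the mean normalized count per gene (base mean, a coverage signal divided by size factors), the log2 fold change, its standard error, the Wald score, the p-value and the adjusted p-value (16629 genes, lowest base mean 12.5). It holds no column for a single library, and its test is the main result.

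A step added once the data had been seen was to recover the reads of each library, as the whole numbers that, times the step of each library, give the printed base mean. This worked for 30662 of 30662 genes between base means of 0 and 10000. The implied log2 fold change lay within 0.001 of the deposited one for 17079 of 17141 genes whose base mean was 10 or more. It did so for 265 of 265 ZNF genes, and 263 of these had 1 solution. Genes with no read in a whole group, such as ZNF518B, were counted as within it on the direction alone. Except at low base means, solutions were sought near the deposited fold change, with the dispersion set by the deposited standard error. This closeness is therefore not a separate check of the reads. Of 265 base means shifted on purpose, 0 were accepted. The recovered values are RSEM's estimated counts after rounding. Differences are of log2(normalized count + 1), which understates changes of low genes. Floors of 3 reads cover counting error only.

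Alternatives on the recovered reads were limma 3.58.1 (R 4.3.3) with a trended prior, checked on simulated data, a smaller pseudocount (0.1), a higher minimum mean (10), voom, and leaving out each library in turn. C2H2 fingers and KRAB motifs were searched in coding sequences of GENCODE 29, translated, in place of the RefSeq proteins first planned. Promoters came from RefSeq (GRCh38.p14) and were aligned with Biopython 1.88. Promoter coordinates are those of GRCh38.p14, and neighbour groups use the gene starts of GENCODE 29. No coordinates are given on hg19, the build in the submitters' notes. Named genes are those with an adjusted p under 0.05, up to 8 largest rises and falls at an unadjusted p under 0.05, the 5 highest base means, the neighbours of the minimum, genes with no read in a library, the 5 largest differences from each control in each direction, the 5 smallest spreads, and the role lists. ZNF407, ZNF264, ZNF587B, ZNF714, ZNF100, ZNF146, ZNF460, ZNF320 and ZNF468 were chosen after their values were seen. The members, the lists and this rule were chosen with earlier results of these data known. Computations used Python 3.11.15, numpy 2.4.6 and pandas 2.3.3.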

Additional observations from a re-analysis of the deposited data

How the results depend on the processing

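The count of ZNF genes with an adjusted p under 0.05 was 2 in the authors' DESeq2 table. It was 4 with a base mean of at least 100, 0 with at least 500, and 1 at an adjusted p under 0.01. On recovered reads it was 0 with limma, with a pseudocount of 0.1, with a mean of at least 10 and with voom, and leaving out 1 library gave 0 to 109. The 109 (68 higher and 41 lower) came without control A, where limma called 8352 of 25011 genes. Without control B limma called 0 genes, with 3360 of 23763 genes (14.1%) and 36 of 265 ZNF genes (13.6%, 25 higher and 11 lower) at an unadjusted p under 0.05. The count at an unadjusted p under 0.05 was 18 in the authors' table, 11 with a base mean of at least 500, 0 under the 4 limma and voom settings, and 0 to 177 when 1 library was left out (177, or 66.8%, without control A, against 50.2% of all genes). With all 4 libraries limma had 495 of 24824 genes at an unadjusted p under 0.05, voom 431. The median log2 fold change of 0.08 was -0.04 with a base mean of at least 500, and 0.03 to 0.18 when 1 library was left out. For ZNF789, at -0.01 in the authors' table, the difference was -0.53 without control B and 0.84 without control A (limma adjusted p 0.0295). Removing a control leaves 1 library in that group, whose spread is assumed to be that of the knockouts. The cause of these shifts was not tested. No paired analysis was possible because the libraries recovered from the table cannot be tied to the replicate numbers in the labels. Of 94 named genes, 92 had a value without control A, where 41 passed the threshold newly and 8 changed sign, ZNF789 alone of these with an adjusted p under 0.05. Without control B 26 of 90 changed sign, 5 of them (ZNF850, ZNF585B, ZNF827, ZNF516 and ZNF593) from a fold change beyond 1 on the log2 scale, none with an adjusted p under 0.05. Under the other settings 2 to 6 changed sign.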

Other observations

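Below the minimum, 3 further ZNF genes had a DESeq2 adjusted p under 0.05 in the authors' deposited table, all lower in the knockouts. ZNF215 and ZNF347 had 0 reads in both knockouts, and 0 and 665 (ZNF215) or 0 and 613 (ZNF347) in control A and control B. ZNF595 had normalized counts of 4.43 and 2.16 in the knockouts and 14.5 and 293 in the controls. All 3 have their reads mostly or wholly in control B, as ZNF518B and ZNF365 do. The authors' deposited table gives DESeq2 adjusted p of 0.000368 (ZNF215), 0.000164 (ZNF347) and 0.035 (ZNF595).

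Relatives of the ZNF genes at the same minimum had 0 genes with an adjusted p under 0.05 in the authors' deposited table. The shares over all genes with an adjusted p were 0.138% higher and 0.421% lower. Of 32 ZBTB genes, whose fingers are joined to a BTB domain, both knockouts lay above both controls for 5 (15.6%, against 24.1% of all genes) and below both for 7 (21.9%, against 23.7%), and 3 were lower at an unadjusted p under 0.05 (9.38%, against 10.7%). Of 13 ZSCAN and ZKSCAN genes, which carry a SCAN domain, 4 lay above and 2 below (30.8% and 15.4%), and of 10 ZFP genes 4 lay above and 0 below.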
